A study of Mus musculus with 39 samples.

Results

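Globin RNAs and the RNAs of the enzymes that make heme were followed through 2 sucrose gradients of mouse liver. Rows of both expression tables were taken where their symbol was Hba-a1, Hba-a2, Alas1, Alas2, Alad, Urod or Fech, or began with Hbb-. This gave 9 genes, 4 globins (Hba-a1, Hba-a2, Hbb-b1 and Hbb-b2) and 5 heme enzymes, among 13982 genes of gradient 1, 13634 of gradient 2 and 13230 present in both. No row was named Hbb-bs or Hbb-bt. A further 3 enzymes of the pathway, Uros, Cpox and Ppox, were read beside them, so that 8 enzyme genes are described.

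All 39 libraries came from the liver of wild-type FVB female mice, with no treatment and no second genotype, and the age and the number of animals behind each gradient are not given in the sources used here. The tissue was washed and broken with beads without detergent, nuclei were spun out, and the supernatant was resolved by velocity on sucrose, so that higher fraction numbers are denser. Gradient 1 supplied 17 libraries, of fractions 4 to 19 and 21, and gradient 2 supplied 22, of fractions 3 to 24. The gradients are biological replicates, and each fraction of a gradient is 1 library, so that n = 2 for the 17 fraction numbers that both gradients share and n = 1 for fractions 3, 20, 22, 23 and 24. Values are TPM, transcript abundances scaled to transcript length and to a fixed total for each library, which can therefore be compared between genes and between fractions as shares. Library totals lay between 998099 and 999202 TPM, and the depth in reads is unknown. The same mass of RNA entered every library, and ribosomal RNA was then depleted, so a TPM tells what share of the quantified transcripts of a fraction a transcript made up and not how much of it the fraction held. In bulk tissue a smaller number of cells of a type and less RNA in each such cell cannot be told apart.

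Hemoglobin is built of alpha and beta globin chains, each holding a heme. Mature red cells have no nucleus, and reticulocytes, the young red cells of the circulation, still carry globin RNA. Heme is made in nearly all cells by a pathway that begins and ends inside mitochondria and runs through the cytosol between. Its first step has separate enzymes encoded by 2 genes, Alas1 in the liver and most other tissues and Alas2 in developing red cells. Hepatocytes use much of their heme for cytochrome P450 enzymes. Translation of Alas2 RNA is controlled by iron regulatory proteins that bind a hairpin in its leader.

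The alpha globin rows are near-identical copies, which matters for how reads are divided between them. In GENCODE M21 on GRCm38, the assembly of mm10, Hba-a1 lies on chromosome 11 at 32283511 to 32284465 and Hba-a2 at 32296489 to 32297298, both on the plus strand. Their coding sequences of 429 bases, stop codon included, differed at 1 base, C381T, counted from 1 at the start codon with the Hba-a1 base first. Of the stretches of 31 bases, the length that Kallisto matches by default, the transcripts shared 477, which is 71.3% of those of Hba-a1 and 91.0% of those of Hba-a2. The adult beta globin genes of the reference assembly are named Hbb-bs and Hbb-bt, and their coding sequences of 444 bases also differed at 1 base, C417T, with 400 shared stretches (66.9% of Hbb-bs and 59.4% of Hbb-bt). The names Hbb-b1 and Hbb-b2 in the tables belong to another haplotype of the locus, and their sequences were not used here, so the likeness of these 2 rows to each other was not measured. The sequences around the single coding differences are shown because they are the only coding bases that separate each pair, and the capital marks that base.
Hba-a1: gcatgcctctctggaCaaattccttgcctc
Hba-a2: gcatgcctctctggaTaaattccttgcctc
Hbb-bs: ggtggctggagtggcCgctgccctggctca
Hbb-bt: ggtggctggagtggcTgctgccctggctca
The alpha pair covers coding bases 366 to 395 and the beta pair 402 to 431. How TPM was divided between the alpha rows is therefore uncertain, the division between the beta rows was not examined, and the sums of the alpha rows and of the beta rows are given beside the single rows.

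A hairpin sequence separates the RNAs of the first enzyme. The 5′ UTR of Alas2 (chromosome X, 150547375 to 150570638, plus strand) is 126 bases long, and bases 86 to 111 hold the letters of an iron-responsive element, printed with its loop of 6 bases in capitals.
Alas2 iron-responsive element: ggttcgtcctCAGTGCagggcaacag
An unpaired C, followed by a stem of 5 pairs that encloses CAGTG and any sixth base, was found in 33 of 58717 transcript starts of the same length (0.0562%). The letters without the pairing, a C, any 5 bases and then CAGTG, were found in 4.96%, and only the sense strand was searched. The form with the stem was found in 0 of 6 coding transcripts of Alas1 (chromosome 9, 106233455 to 106248654, minus strand). A match is a description of the letters in this window, and binding by iron regulatory proteins was not measured.

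Globin RNAs made up a small share of the quantified transcripts and were most concentrated in the lighter fractions of both gradients. Summed over the 4 rows, globins took between 0.0126% and 0.0875% of the TPM of a fraction in gradient 1, and between 0.00856% and 0.0903% in gradient 2. Hba-a1, an alpha chain, had the highest mean and peak TPM of the globin rows in both gradients. In gradient 2 its median of 117 TPM lay below the 124 TPM of Hbb-b1. In gradient 1 its TPM in successive fractions from 4 to 11 was 372, 329, 359, 491, 515, 475, 445 and 379, and it then dropped from 211 in fraction 12 to 60.1 in fraction 21. In gradient 2 the same fractions 4 to 11 held 288, 250.4, 256, 365, 387, 306, 260 and 241 TPM, followed by 170.2 in fraction 12 and 55.4 in fraction 21. Both gradients thus had a rise to fraction 8 and a steep decline between fractions 11 and 13. Fraction 3, which was sequenced in gradient 2 alone, had the highest value of all at 621 TPM and stood above its neighbor fraction 4.

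Hbb-b1, the more abundant beta chain, followed a similar course with a flatter top. Its highest TPM among the shared fractions was 306 in gradient 1 and 235 in gradient 2, both in fraction 8. Its lowest TPM among them was 51.1 in gradient 1 and 37.8 in gradient 2, both in fraction 21. Fraction 3 of gradient 2 held 243 TPM of Hbb-b1. Hbb-b2 was lower, with a median of 21.1 TPM in gradient 1 and 16.2 TPM in gradient 2, and peaked at 59.9 TPM in fraction 9 of gradient 1 and at 51.7 TPM in fraction 8 of gradient 2. The ratio of Hbb-b1 to Hbb-b2 had a median of 5.57 in gradient 1 (range 3 to 19.5) and 5.14 in gradient 2 (range 3.14 to 11.5).

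Hba-a2, the second alpha gene, was listed at very low values that did not repeat between the gradients. In gradient 1 it was at 0 in 5 of 17 fractions and reached 12.4 TPM in fraction 21. In gradient 2 it was at 0 in 7 of 22 fractions and reached 16.3 TPM in fraction 8. It made up at most 17.1% of alpha globin TPM in gradient 1 and 7.54% in gradient 2. The sum of both alpha rows therefore followed Hba-a1, and the other alpha row carried no profile that both gradients shared.

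**Figure D1:**
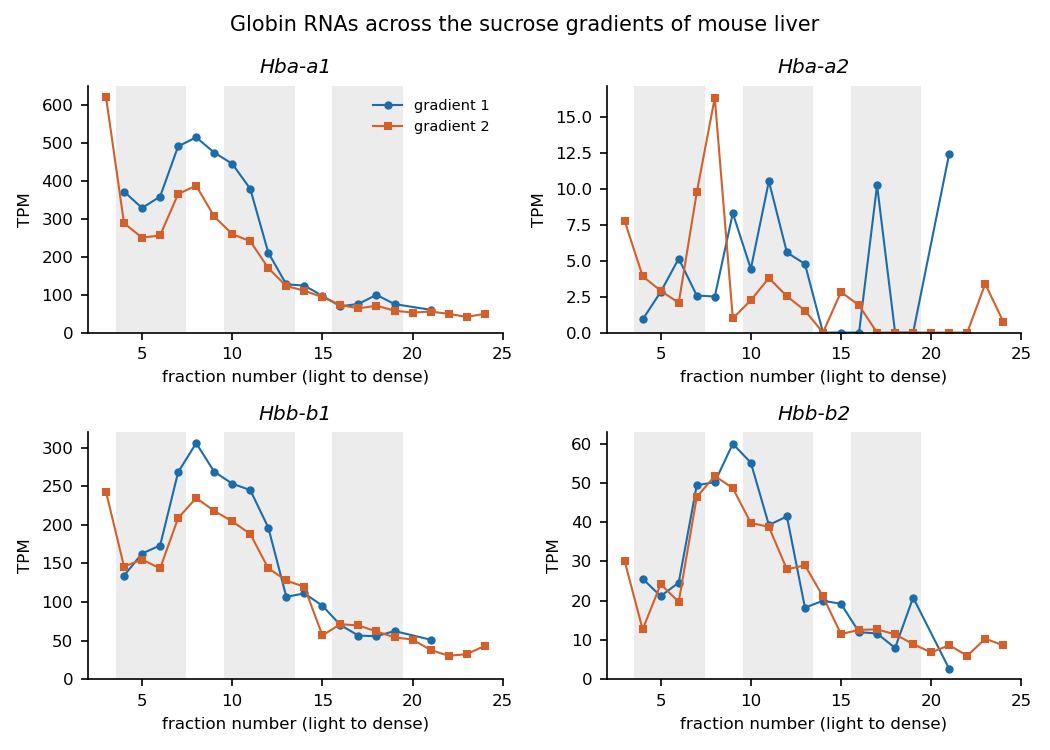
TPM of Hba-a1, Hba-a2, Hbb-b1 and Hbb-b2 (vertical axes) by fraction number from light to dense (horizontal axes), with 1 point per library, circles for gradient 1 and squares for gradient 2, and shaded light, middle and dense zones. Hba-a1 and Hbb-b1 peaked in fraction 8 among the shared fractions of both gradients, while Hba-a2 was at 0 in 5 of 17 and 7 of 22 fractions.

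The shapes of 3 globin rows repeated well. Over the 17 shared fraction numbers, the Pearson R between gradients was 0.982 for Hba-a1 (Spearman rho 0.961), 0.965 for Hbb-b1 (rho 0.951) and 0.899 for Hbb-b2 (rho 0.809), beside a median R of 0.904 over 11371 genes. For Hba-a2 it was -0.15 (rho -0.010). Within a gradient, Hba-a1 and Hbb-b1 had an R of 0.937 in gradient 1 and 0.933 in gradient 2, and Hbb-b1 and Hbb-b2 had 0.942 and 0.934. These values describe shape over neighboring fractions of the same tube, which are not independent.

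For the comparison of densities, fractions 4 to 7 were called the light zone, 10 to 13 the middle zone and 16 to 19 the dense zone. Log2(TPM + 1) was averaged over the 4 fractions of a zone in each gradient and tested with limma over 11754 genes, with Benjamini-Hochberg adjustment and a threshold of 0.05. Values named as log2 below are differences on this scale, which understates changes of low genes. The whole table shifted between zones: the median change over all genes was -0.43 from light to dense, 0.05 from light to middle and -0.28 from middle to dense. Zones of a gradient share a homogenate, and the fit with the gradient as a block is given where it changed a call of a globin row or of an enzyme.

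From the light to the dense zone, all 4 globin rows fell, and among all genes tested 39.6% fell and 61.9% changed in either direction. Hba-a1 averaged 339 ± 68.9 TPM in the light zone and 73.1 ± 9.60 TPM in the dense zone (SD, n = 2 gradients). Its log2 change was -2.18 (SE 0.24, adjusted p = 0.000869), with -2.26 in gradient 1 and -2.10 in gradient 2. Hbb-b1 went from 174 ± 15.1 to 62.6 ± 2.17 TPM (SD, n = 2), a log2 change of -1.43 (SE 0.16, adjusted p = 0.000923). Hbb-b2 went from 27.9 ± 3.14 to 12.2 ± 1.20 TPM (SD, n = 2), a log2 change of -1.06 (SE 0.19, adjusted p = 0.00448). For Hba-a1 and Hbb-b1 every dense fraction lay below every light fraction of the same gradient, and for Hbb-b2 this held in gradient 1 only, since in gradient 2 its highest dense and lowest light values were both 12.7 TPM. The call for Hba-a2 (log2 change -1.45, SE 0.40, adjusted p = 0.0226) rests on values listed at 0 in 6 of 8 dense libraries, and it was lost when either light zone or the dense zone of gradient 2 was left out, with quantile normalization (adjusted p = 0.0820, and 0.0691 with the block) and in narrower zones (adjusted p = 0.166). Summed rows gave a log2 change of -2.17 for alpha (SE 0.24, adjusted p = 0.000938) and -1.39 for beta (SE 0.16, adjusted p = 0.000979). With the gradient as a block the 4 globin rows fell as well, beside 50.0% of all genes that fell and 80.6% that changed either way.

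On the TPM scale as deposited, most of this decline lay beyond the middle zone. From light to middle, 0 of the 4 globin rows passed the test with limma, beside 47.5% of all genes, of which 24.1% fell. Hba-a1 differed by -0.57 (SE 0.24, adjusted p = 0.0950), and this became a call with the gradient as a block (adjusted p = 0.00500), after rescaling without the 50 most abundant genes (log2 difference -0.76, adjusted p = 0.0398) and with quantile normalization (log2 difference -1.01, adjusted p = 0.0157). Hbb-b2 differed by 0.42 (SE 0.19, adjusted p = 0.116, and 0.0170 with the block), in the opposite direction to Hba-a1. Of all genes, 72.1% changed with the block, and 35.0% fell. Hbb-b1 averaged 174 ± 15.1 TPM in the light zone and 183 ± 24.3 TPM in the middle zone (SD, n = 2), a log2 difference of 0.05 (adjusted p = 0.807). From middle to dense, all 4 globin rows fell, while 22.5% of all genes fell and 27.3% changed either way. The log2 changes there were -1.61 for Hba-a1 (adjusted p = 0.00845), -1.66 for Hba-a2 (adjusted p = 0.0311), -1.48 for Hbb-b1 (adjusted p = 0.00700) and -1.48 for Hbb-b2 (adjusted p = 0.00714). When a middle zone of either gradient was left out, the number of globin rows past the threshold in this last comparison was 0, with adjusted p for Hbb-b1 of 0.0573 and 0.0606. The call for Hba-a2 was lost in all 6 fits that left out a zone value (adjusted p from 0.0525 to 0.113), in wider (0.101) and narrower (0.108) zones and with quantile normalization (0.0501).

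Alpha and beta globin RNA did not keep a fixed proportion through the gradients. The ratio of summed beta to summed alpha TPM was 0.429 in fraction 4 of gradient 1 and 0.434 in fraction 3 of gradient 2, the lowest values of each. It reached 1.18 in fraction 16 of gradient 1 and 1.29 in fraction 17 of gradient 2. The mean over the light zone was 0.543 in gradient 1 and 0.641 in gradient 2, and that over the middle zone was 0.865 and 1.03. In the dense zone the means were 0.930 and 1.13. Over both gradients this was 0.592 ± 0.069 in the light zone, 0.947 ± 0.116 in the middle zone and 1.03 ± 0.14 in the dense zone (SD, n = 2). The light-zone means of both gradients lay below the middle-zone and dense-zone means of both, whereas the middle and dense zones overlapped. With 2 gradients against 2, an exact two-sided permutation test that ignores the pairing of zones by gradient cannot go below p = 0.333. The ratio is given as a description without a test. Within the dense zone the ratio swung from 0.639 to 1.18 in gradient 1 and from 1.03 to 1.29 in gradient 2.

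**Figure D2:**
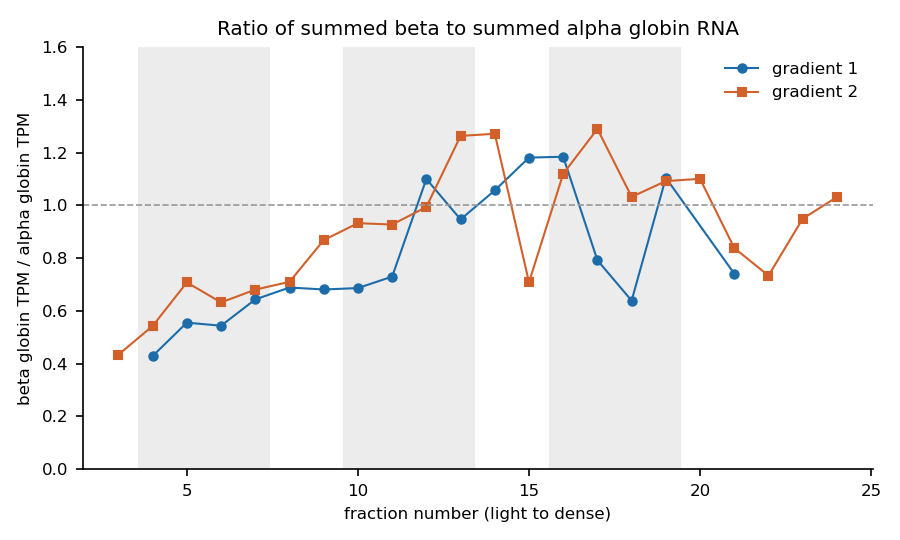
Summed beta globin TPM divided by summed alpha globin TPM (vertical axis, starting at 0) by fraction number from light to dense (horizontal axis), 1 point per library, with the zones shaded and a dashed line at equal TPM. Both gradients started near 0.43 and lay around 1 in the denser fractions, with scatter between 0.639 and 1.29 from fraction 12 on.

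The heme enzyme RNAs had other profiles than the globins, and they also differed from each other. Alas1, the first and rate-limiting enzyme of the pathway in liver, was higher in each denser zone of both gradients. In gradient 1 it averaged 34.9 TPM in the light zone (range 25.6 to 40.4), 91.0 in the middle zone (68.2 to 115) and 207 in the dense zone (185 to 222). In gradient 2 the same zones averaged 288 TPM (155 to 341), 519 (413 to 640.4) and 1181 (985 to 1340.4). No 2 zones of a gradient overlapped, yet every zone of gradient 2 held more Alas1 than the same zone of gradient 1. Beyond the dense zone, fraction 21 held 216 TPM in gradient 1, below the 222 TPM of its fraction 17, and 1885.5 TPM in gradient 2, where fraction 24, the densest of all, held the highest value at 2241 TPM.

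The distance between the gradients set the error of the Alas1 tests. Averaged over the shared fractions, Alas1 was at 115 TPM in gradient 1 and at 719 TPM in gradient 2, a 6.25-fold difference that ran from 5.12-fold to 9.66-fold over the 17 fractions. Only 17 of 11371 genes had a larger ratio of gradient 2 to gradient 1, where the median ratio of all genes was 0.883. From light to dense the log2 change was 2.55 in gradient 1 and 2.09 in gradient 2, and its mean of 2.32 had an SE of 1.36 and an adjusted p of 0.183 without the block. With the gradient as a block the SE was 0.15 and the adjusted p was 0.000130. The corresponding blocked values were 0.00188 from light to middle (log2 change 1.12) and 0.00224 from middle to dense (log2 change 1.20), whereas without the block they were 0.525 and 0.573. The profile shape repeated between the gradients with an R of 0.931 (rho 0.968).

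Alas2, the erythroid enzyme of the same step, was present at a low level and did not follow the globins. It ranged from 2.59 to 8.70 TPM in gradient 1 and from 4.13 to 11.8 TPM in gradient 2. From light to dense it went from 4.07 to 6.57 TPM in gradient 1 and from 4.97 to 10.4 TPM in gradient 2. The log2 difference was 0.76 (SE 0.34, adjusted p = 0.0962, and 0.00562 with the gradient as a block). With quantile normalization it was 1.31 (adjusted p = 0.0270). From light to middle Alas2 differed by 0.42 (adjusted p = 0.336, and 0.0481 with the gradient as a block). The dense and light ranges overlapped in gradient 1 and did not overlap in gradient 2. Alas2 was also higher in gradient 2 in 17 of 17 shared fractions, by 1.59-fold on average, at the 95.4th percentile of all genes. The R between gradients was 0.560 (rho 0.583), the lowest of the 8 enzymes, next to 0.568 for Uros. Over the shared fractions the R of Alas2 with the globin sum was -0.63 in gradient 1 and -0.75 in gradient 2, as a description of 17 neighboring fractions each.

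Alad, which joins a pair of the first intermediates into porphobilinogen in the cytosol, rose from light to dense by 2.28 on the log2 scale (SE 0.18, adjusted p = 0.000405). Its zone means were 69.8, 155 and 296 TPM in gradient 1 and 52.8, 155 and 278 TPM in gradient 2. Urod, the cytosolic enzyme that makes coproporphyrinogen, had the largest change of the 8 enzymes. Its zone means were 29.2, 168 and 353 TPM in gradient 1 and 27.3, 139 and 260.0 TPM in gradient 2. The change from light to dense was 3.49 on the log2 scale (SE 0.20, adjusted p = 0.000301), an 11.3-fold rise on the TPM + 1 scale. For both genes the 3 zones of a gradient did not overlap. Beyond the dense zone the gradients differed. From fraction 20 to fraction 24 of gradient 2, Urod lay between 195 and 236 TPM and Alad between 222 and 268 TPM, below their highest values of 279 and 298 TPM in fraction 17. Fraction 21 of gradient 1 instead held the highest value of that gradient for both, 396 TPM for Urod and 372 TPM for Alad.

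Fech, the mitochondrial enzyme that puts iron into the ring in the last step, had another shape. Its zone means were 158, 261 and 156 TPM in gradient 1 and 151, 254 and 148 TPM in gradient 2, with the highest value in fraction 10 of both. It rose from light to middle by 0.74 (SE 0.14, adjusted p = 0.00864) and fell by 0.77 from middle to dense (SE 0.14, adjusted p = 0.0140). The rise to the middle zone did not pass with quantile normalization (log2 difference 0.34, adjusted p = 0.0716) or without the middle zone of gradient 1 (adjusted p = 0.0723) or 2 (adjusted p = 0.0541). The fall to the dense zone did not pass without the middle zone of gradient 1 (adjusted p = 0.107) or 2 (0.0941) or the dense zone of gradient 2 (0.0512). The dense and light zones differed by -0.02 (SE 0.14, adjusted p = 0.904). Its R between gradients was 0.983.

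**Figure D3:**
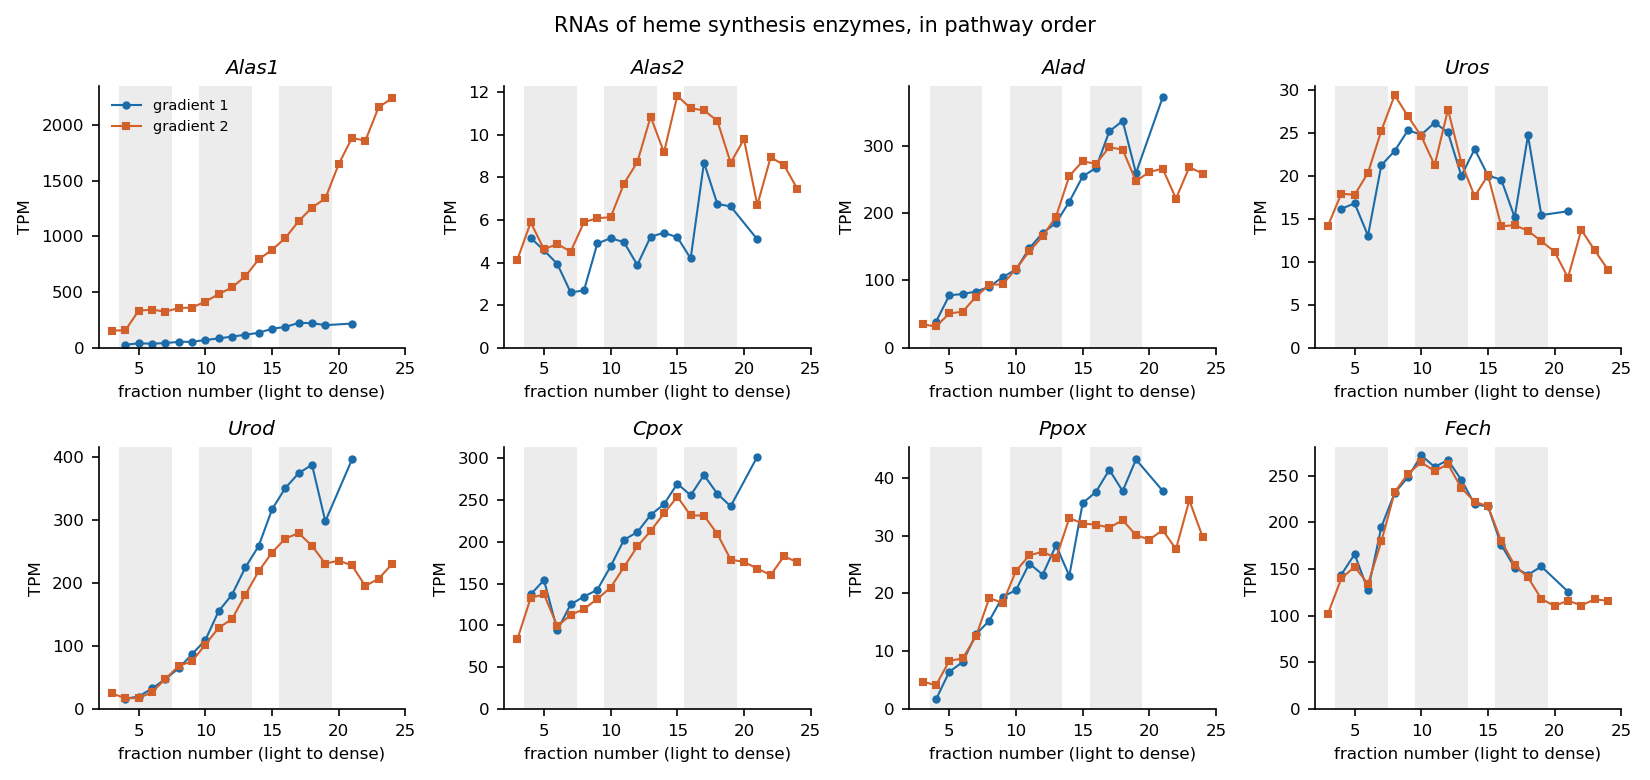
TPM of 8 enzyme RNAs of heme synthesis in pathway order (vertical axes, each starting at 0) by fraction number from light to dense (horizontal axes), 1 point per library, circles for gradient 1 and squares for gradient 2, zones shaded. Alas1 was 6.25-fold higher in gradient 2, Alad and Urod rose to the dense zone, and Fech peaked in fraction 10 of both gradients.

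Of the enzymes that were not chosen as members, Uros, which closes the ring, was at 16.8, 24.0 and 18.7 TPM in gradient 1 and at 20.3, 23.7 and 13.6 TPM in gradient 2, and none of its zone differences passed the test (adjusted p from 0.112 to 0.456), although the fall of 0.56 from middle to dense did with the gradient as a block (adjusted p = 0.0474). Ppox and Cpox, the mitochondrial enzymes before Fech, both rose from light to dense. The log2 change was 2.20 for Ppox (SE 0.22, adjusted p = 0.000658) and 0.93 for Cpox (SE 0.17, adjusted p = 0.00529).

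Counted over the 8 enzymes, 4 rose and 0 fell from light to dense (Urod, Alad, Ppox and Cpox), beside 22.3% of all genes that rose. Their median log2 change was 1.56, and that of the 5 member enzymes was 2.28, beside -1.44 for the 4 globin rows and -0.43 for all genes. With the gradient as a block, 6 of 8 rose, Alas1 and Alas2 being added, beside 30.5% of all genes. From light to middle, 5 of 8 rose (23.5% of all genes did), and 7 with the block (37.2%). The call for Cpox there was lost after rescaling without the 50 most abundant genes (adjusted p = 0.0604), with quantile normalization (0.152) and in the 4 fits that left out a light or a middle zone (0.0767 to 0.169). From middle to dense, Alad and Urod rose by 0.90 (adjusted p = 0.0183) and 1.02 (adjusted p = 0.0182), beside 4.79% of all genes, and Fech fell, beside 22.5%. With the block 3 rose (14.1% of all genes) and 2 fell (39.3%), while 53.4% of all genes changed either way. The number of member enzymes past the threshold from middle to dense was 0 when the middle zone of either gradient was left out. At least 1 of the calls for Alad and Urod was lost in each of the 6 fits that left out a zone value, with adjusted p from 0.0506 to 0.101 for Alad in 4 of them and from 0.0507 to 0.105 for Urod in 5.

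**Figure D4:**
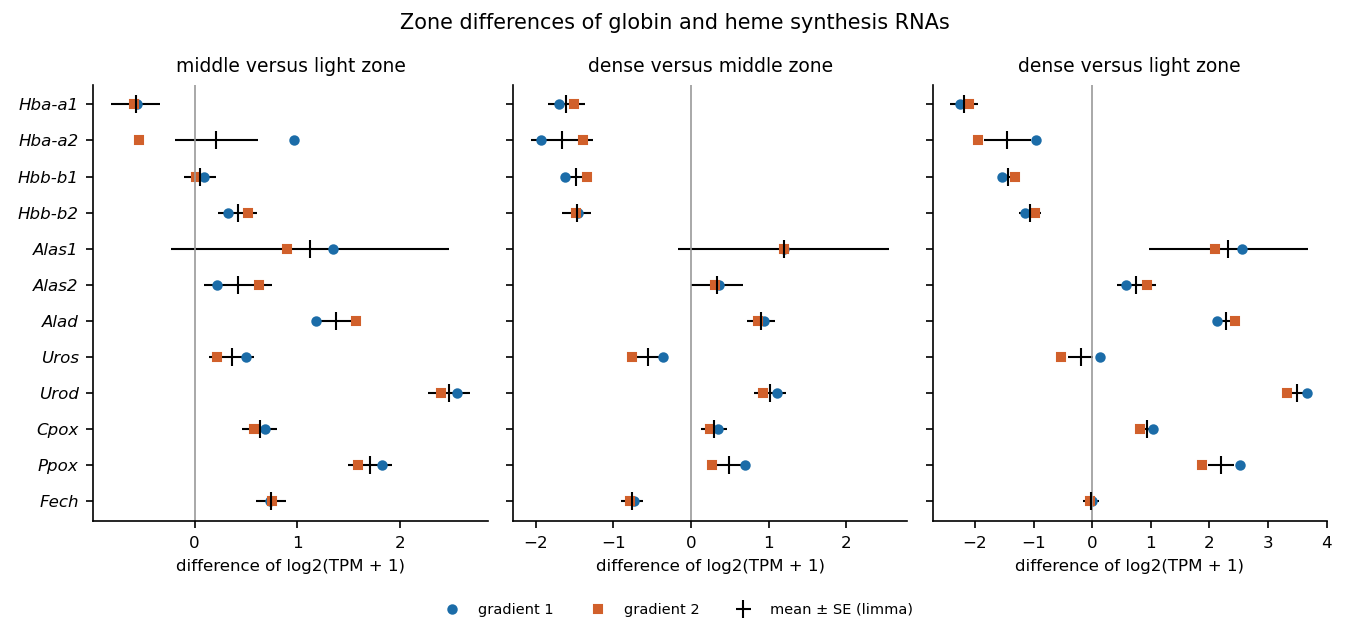
Differences of log2(TPM + 1) between zones (horizontal axes) for the 4 globin rows and the 8 enzymes (vertical axis), with a circle for gradient 1, a square for gradient 2 and a bar for the mean ± SE of limma without a block. From light to dense, the 4 globin rows lie left of 0 in both gradients and Alas1, Alas2, Alad, Urod, Cpox and Ppox lie right of it, and the long bar of Alas1 (SE 1.36) comes from the distance between its gradients.

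The center of sedimentation, in which each of the 17 shared fraction numbers counts in proportion to its TPM, places each RNA on the gradient with a single number. Hba-a1 had the lightest center at 9.37 ± 0.11 (SD, n = 2 gradients), at the 17.2nd percentile of 11371 genes. Hbb-b1 at 10.1 ± 0.05 (29.5th percentile) and Hbb-b2 at 10.3 ± 0.13 (32.7th percentile) followed. Hba-a2 had centers of 12.6 in gradient 1 and 8.62 in gradient 2 and has no settled place. Uros (11.6 ± 0.64) and Fech (11.8 ± 0.04) lay near the median of all genes, 11.3, and within its quartiles of 9.87 and 12.8. Alas2 (13.0 ± 0.21), Cpox (13.2 ± 0.31) and Ppox (14.2 ± 0.45) came next. Alad (14.7 ± 0.06), Alas1 (15.0 ± 0.009) and Urod (15.2 ± 0.31) were at the 96.5th, 98.4th and 99.1st percentiles. Neighbors in this order whose gradients overlapped, such as Uros with Fech, Alas2 with Cpox and Alas1 with Urod, cannot be ranked against each other. The center of the globin sum was 9.67 in gradient 1 and 9.79 in gradient 2, and the median of the 5 member enzymes was 14.7 and 14.6, while the single member enzymes reached from 11.7 (Fech in gradient 2) to 15.4 (Urod in gradient 1). Single genes of the sets overlapped in gradient 1, where Hba-a2 at 12.6 lay beyond Fech at 11.8.

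**Figure D5:**
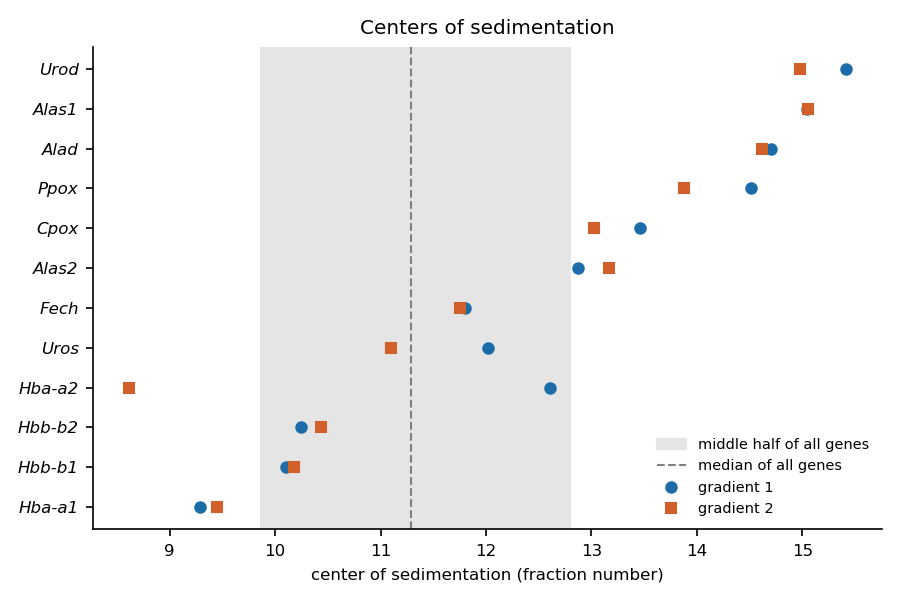
Center of sedimentation in fraction numbers (horizontal axis) of the 4 globin rows and the 8 heme enzymes (vertical axis), circles for gradient 1 and squares for gradient 2, with the median of all genes as a dashed line and the range between its quartiles shaded. Hba-a1 lies at 9.29 and 9.45, left of the shaded range from 9.87 to 12.8, and Alas2, Cpox, Ppox, Alad, Alas1 and Urod lie to the right of it in both gradients.

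Among the enzymes, likeness of profile followed the pathway order only in part. Of consecutive steps, Alas1 and Alad had an R of 0.984 in gradient 1 and 0.849 in gradient 2. Urod and Cpox had 0.958 and 0.886, and Cpox and Ppox had 0.891 and 0.829. Uros and Urod, also consecutive, had -0.064 and -0.59, and Ppox and Fech had -0.11 and 0.156. Alad and Urod, steps apart in the cytosol, had an R of 0.986 in gradient 1 and 0.995 in gradient 2. Fech and Uros, a mitochondrial and a cytosolic enzyme, had 0.799 and 0.768. Alad and Fech had -0.33 and -0.15. Alas1 had an R with Urod of 0.985 in gradient 1 and 0.826 in gradient 2, where fraction 21 lay above the dense zone for Alas1 and not for Urod. The globin sum had an R of -0.87 and -0.84 with Alas1, and of 0.481 and 0.456 with Fech. All are descriptions over 17 neighboring fractions of the same libraries and carry no test.

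The genes whose profiles were most like these were found on log2(TPM + 1), by the lower R of both gradients, among 6722 genes with a mean of at least 10 TPM in both. For the globin sum these were Atf1, Chn2, Ube2j2, Taf10 and Ppp2r5a, with a lower R from 0.978 to 0.987. For Alas1 they were Ap1b1, Selenbp1, Aacs, Aldh2 and Cbs, with a lower R from 0.984 to 0.987. For Alas2 the likeness was much weaker, with Slbp, Slu7, Srsf7, Aar2 and Sdpr at a lower R from 0.721 to 0.733. The list for Alas2 had 0 genes in common with that made from gradient 2 alone over its 22 fractions.

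Of 15 genes that serve heme synthesis by bringing in iron or glycine, making iron-sulfur clusters or handling porphyrins, all were tested, and from light to dense 2 rose and 7 fell, with a median log2 change of -0.71 beside -0.43 for all genes, of which 22.3% rose and 39.6% fell. With the gradient as a block 4 rose and 10 fell, beside 30.5% and 50.0% of all genes. Slc25a37, mitoferrin-1, the mitochondrial iron importer best known from red cells, fell by 2.85 (SE 0.37, adjusted p = 0.00142). Slc25a39, a mitochondrial carrier that brings in glutathione, fell by 2.31 (SE 0.15, adjusted p = 0.000305). Tspo, a porphyrin-binding protein of the outer mitochondrial membrane, rose by 3.11 (SE 0.32, adjusted p = 0.000761), and Hebp1, a cytosolic heme-binding protein, rose by 2.99 (SE 0.21, adjusted p = 0.000323).

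Clpx, a mitochondrial unfoldase that acts on the Alas1 and Alas2 enzymes, is another gene of this list whose level differed between the gradients. It is named here after its values were seen. Its mean was 311 TPM in gradient 1 and 86.9 TPM in gradient 2 over all fractions of each, opposite in direction to Alas1. Its log2 change from light to dense was 2.51 in gradient 1 and 1.81 in gradient 2, with an adjusted p of 0.0669 without and of 0.000290 with the gradient as a block.

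Of 12 genes of heme transport and breakdown, 10 were tested, and from light to dense 4 rose and 4 fell, beside 22.3% and 39.6% of all genes. With the gradient as a block 4 rose and 5 fell (30.5% and 50.0% of all genes), Cd163, the hemoglobin scavenger receptor, being added (adjusted p = 0.0727 without and 0.00446 with the block). Blvra, biliverdin reductase A, rose by 2.45 (SE 0.18, adjusted p = 0.000334), Hmox1, the inducible heme oxygenase, rose by 1.66 (SE 0.42, adjusted p = 0.0168), and Hmox2, the constitutive form, rose by 0.94 (adjusted p = 0.0215). Blvrb, the other biliverdin reductase, also rose (adjusted p = 0.00322). The heme transporter Slc48a1 fell by 2.74 (SE 0.25, adjusted p = 0.000558), the plasma heme carrier Hpx fell by 1.78 (SE 0.44, adjusted p = 0.0152), the hemoglobin binder Hp fell by 1.41 (adjusted p = 0.0104) and the uptake receptor Lrp1 fell by 1.32 (adjusted p = 0.00268). The call for Hmox1 was lost without the light zone of gradient 2 (adjusted p = 0.110) or the dense zone of gradient 1 (0.0663). The call for Hmox2 was lost in the same fits (0.123 and 0.0817), in which 2 genes of the list rose, and without the light zone of gradient 1 (0.0543). That for Hpx was lost without the light (0.0898) or the dense (0.0580) zone of gradient 1, and that for Hp without that light zone (0.0680). Blvrb, Hmox2, Hp, Lrp1 and Cd163 are named here after their values were seen. Flvcr1 and Flvcr2 had no row in both tables.

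Whether the globin RNAs came with other RNAs of red cells was checked with 14 erythroid markers. Of these, 10 had no row in either table, among them Slc4a1 (band 3), Ahsp and Gata1, in tables that keep genes over 1 TPM in at least 1 fraction. The 4 present, Klf1, Ermap, Tmcc2 and Epb42, summed to between 5.22 and 18.9 TPM in gradient 1 and between 4.48 and 26.6 TPM in gradient 2. In the light zone the sum ran from 8.76 to 14.7 TPM in gradient 1 and from 10.7 to 18.2 in gradient 2, and in the dense zone from 5.22 to 5.69 and from 4.86 to 9.17. The sum was thus lower in the dense zone than in the light zone of both gradients. In the middle zone it ran from 8.43 to 16.5 TPM in gradient 1 and from 10.2 to 18.4 TPM in gradient 2, overlapping the light zone. Of the 3 tested, Ermap, an erythroid membrane protein, fell from light to dense by 1.70 (SE 0.18, adjusted p = 0.000762) and the other two did not pass, beside 39.6% of all genes that fell. In the blocked fit 2 of 3 fell (50.0% of all genes), Klf1, an erythroid transcription factor, being added (log2 change -0.57, adjusted p = 0.00809), and its difference was 0.00395 with quantile normalization. From light to middle Ermap fell by 1.53 (adjusted p = 0.00208), and from middle to dense it differed by -0.17 (adjusted p = 0.530). Klf1 differed from light to middle by 0.74, in the opposite direction to Ermap (adjusted p = 0.0864). With the gradient as a block this rise of Klf1 was a call (adjusted p = 0.00396), beside 37.2% of all genes that rose. Klf1 fell by 1.31 from middle to dense (adjusted p = 0.0255), a call that was lost with quantile normalization (adjusted p = 0.126) and in 5 of the 6 fits that left out a zone value (0.0528 to 0.125). The values of Klf1 are given after they were seen. A red cell source of the globin RNAs rests on the globins themselves and on these 4 low markers, and it was not tested.

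Markers of other cells of the tissue were read in the same zones. Of 9 Kupffer cell markers all were present, with a sum of 208 to 250.1 TPM in the light and 95.3 to 118 TPM in the dense zone of gradient 1, and of 190.4 to 246 and 125 to 138 TPM in gradient 2. From light to dense, 5 of them fell, 0 rose and 4 did not pass the test, beside 39.6% of all genes that fell. The Kupffer sum was already at 85.3 to 122 TPM in the middle zone of gradient 1 and at 99.2 to 125 TPM in that of gradient 2. Of the 5 sinusoidal endothelial markers, 3 of 4 tested fell and 0 rose (4 of 4 fell with the gradient as a block, beside 50.0% of all genes), and their sum ran from 71.8 to 88.7 TPM in the light and from 30.6 to 38.4 TPM in the dense zone of gradient 1. In gradient 2 it ran from 45.4 to 69.4 TPM in the light and from 20.5 to 26.8 TPM in the dense zone. Among the markers that fell from light to dense, the Kupffer marker Marco lost its call with quantile normalization (adjusted p = 0.155). The endothelial marker Oit3 did so as well (adjusted p = 0.0853). Both calls were also lost in fits that left out a zone value, and both genes are named for these losses. Hepatocyte markers went both ways, with 4 of 8 rising and 2 falling, beside 22.3% and 39.6% of all genes. The 2 that fell were Apob (log2 change -3.72, adjusted p = 0.000384) and Alb (log2 change -2.59, adjusted p = 0.00267). Averaged over the gradients both had larger changes than any globin row, and they are named after their values were seen. Alb changed by -3.35 in gradient 1 and by -1.82 in gradient 2, where Hba-a1 changed by -2.10. Their list summed to between 33439 and 50480.2 TPM in the light and between 48865 and 56895 TPM in the dense zone of gradient 1, and to between 26341 and 36134 TPM and between 50022 and 56053 TPM in gradient 2, so that the zones overlapped in gradient 1 alone. Platelet (3 of 7 with a row in both tables), neutrophil (2 of 8) and lymphocyte (2 of 6) markers summed to at most 5.67, 23.1 and 5.19 TPM in any fraction. From light to middle, 5 of 9 Kupffer and 3 of 4 endothelial markers fell (24.1% of all genes did), and from middle to dense 0 of either fell (22.5%), whereas of the globin rows 0 of 4 and then 4 of 4 fell in the same limma fit. The blocked fit gave 7 Kupffer and 3 endothelial markers that fell from light to middle (35.0% of all genes) and 0 and 1 from middle to dense (39.3%), with 1 globin row and then 4 that fell. The lower globin share of the dense zone relative to the light zone coincided with lower summed TPM of the Kupffer, endothelial and erythroid markers and with higher values of Alas2 (adjusted p = 0.0962 without and 0.00562 with the block), and the part of these cells in the globin and enzyme profiles was not tested.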

How the data were processed

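The authors prepared stranded libraries with depletion of ribosomal RNA from equal masses of input RNA, made base calls with bcl2fastq 2.16.0.10 per the processing notes, and pseudo-aligned reads with Kallisto (version not given in the sources used here) to mm10 RefSeq transcripts. The deposited values are TPM per gene symbol for each gradient, for genes over 1 TPM in at least 1 fraction. Depth is unknown, so no counting error is given. 0 value columns were left unmatched.

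Zone means of log2(TPM + 1) were compared with limma 3.58.1 (R 4.3.3, eBayes with trend) for genes with a mean of at least 1 TPM over the 24 zone libraries, without a block, and with the gradient as a block as an alternative. Since 1 homogenate supplied every zone of a gradient, the gradient pairs the zones, and the deviations of its zones from the zone means correlated across genes (r = 0.665 light with middle, 0.540 light with dense, 0.798 middle with dense). Other alternatives were pseudocount 0.1, TPM filters, rescaling, quantile normalization, zone borders, summed paralogs, eBayes without trend and leaving out a zone value. 2 further alternatives, which combine the block with summed paralogs or with quantile normalization, were chosen after seeing the data.

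Members and gene lists were chosen with earlier results of these data known. Named are all members, 3 further enzymes of the pathway, missing defining markers and the 5 genes of most similar profile. Up to 4 called genes of the largest change from light to dense are named for each list. Of the Kupffer, endothelial and hepatocyte lists only counts and sums are given, Apob, Alb, Marco and Oit3 apart. Some genes of the lists are not reported here. Scripts used Python 3.11.15, NumPy 2.4.6, pandas 2.3.3 and matplotlib 3.10.9. Sequences and positions are from GENCODE M21 (GRCm38).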

Additional observations from a re-analysis of the deposited data

How the results depend on the processing

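With n = 2 gradients and unknown depth, low values such as those of Hba-a2 and Alas2 have no counting error, and TPM shares cannot show amounts of RNA per fraction. The falls of Hba-a1, Hbb-b1 and Hbb-b2 and the rises of Alad, Urod, Cpox and Ppox from light to dense kept direction and call under every alternative run. With the gradient as a block, alone, with paralogs summed or with quantile normalization, the number of member enzymes that rose was 4 from light to dense and 5 from light to middle. Without the block it was 2 and 3, and with quantile normalization alone 3 and 2. With quantile normalization and the block it was 4 from middle to dense (2 with neither and 2 with quantile normalization alone), while 1 enzyme, Fech, then fell from light to dense. Summing paralogs left 2 globin rows, both of which fell from light to dense and from middle to dense, since 4 rows became 2. From light to middle, 1 globin row fell with the block (with or without paralogs summed or quantile normalization), with rescaling without the 50 most abundant genes and with quantile normalization, and 1 globin row rose with the block and in narrower zones. The cause was not tested.

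Leaving out a zone value of 1 gradient gave from 3 to 4 globin rows that fell from light to dense and from 0 to 3 from middle to dense. The member enzymes that rose numbered 2 in all such fits from light to dense, from 2 to 3 from light to middle and from 0 to 1 from middle to dense, where from 0 to 1 fell. The 0 for rises also came without the dense zone of gradient 1, and the 0 for falls without that of gradient 2. In the same fits, which have fewer samples and set unlike gradients against each other for Alas1, differences ranged from -0.36 to 2.61 for Alas1 from light to middle, from -0.056 to 2.45 for Alas1 and from -0.00394 to 0.67 for Alas2 from middle to dense, from -0.30 to 0.72 for Hba-a2 and from -0.057 to 0.16 for Hbb-b1 from light to middle, and, from light to dense, from -0.064 to 0.021 for Fech and from -0.40 to 0.00644 for Uros. Differences that changed sign were without a call before and after: from light to middle Hbb-b1 with rescaling (-0.13), quantile normalization with or without the block (-0.36) and wider zones (-0.10), and Hba-a2 with wider zones (-0.38), and from light to dense Fech with narrower zones (0.034) and Uros with quantile normalization with or without the block (0.089). Klf1, lower from light to dense with a call under the block alone, was at 0.00395 with quantile normalization with or without the block, and Ermap, without a call from middle to dense, was at 0.096 there in those fits.

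The center of the globin sum, 9.73, was 9.64 over all fractions, 9.60 after rescaling and 11.6 with log2 weights, and the median center of the member enzymes, 14.7, was 15.6, 14.7 and 12.6, so that the distance between them shrank on the log scale and kept its direction. Of the 5 genes most like the globin sum, 3 stayed on linear TPM and 1 with gradient 2 alone. For Alas1 2 stayed on linear TPM. For Alas2 1 stayed on linear TPM, 3 with a minimum mean of 1 TPM and 0 with gradient 2 alone.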
